A study of Mus musculus with 12 samples.

Results

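A set of 9 genes of glucose production and glucose use were followed in mouse liver. They were the rows of the deposited expression table whose symbols are Pck1, G6pc, Fbp1, Pcx, Gckr, Pklr, Slc2a2, Slc37a4 and Mlxipl, which makes 9 of 23849 symbols, and all 9 passed the minimum level used for testing. RNA-seq had been done on livers of 12 male mice of the C57BL/6J background, 8 weeks old in the series' description, with 3 mice in each of 4 groups. High-fat diet (HFD) was given to all 12 for 6 weeks, so that no lean group enters any comparison here. For the last 2 weeks the mice received either vehicle, which was drinking water, or Policaptil Gel Retard, a gel-forming complex of plant fibers that the labels call Libramed. Both were given once a day by oral gavage at ZT11, where ZT counts the hours since lights came on in a cycle of 12 h light and 12 h dark. Livers were collected at ZT0, the end of the active phase of mice, or at ZT12, its start, and each mouse gave 1 liver at 1 time. The groups are therefore vehicle ZT0, vehicle ZT12, Libramed ZT0 and Libramed ZT12, and the comparisons ask how the genes differ between the times within each treatment, between the treatments at each time, and whether the time difference itself differs between treatments. Gavage fell shortly before ZT12, so between ZT0 and ZT12 the time of day and the time since gavage cannot be told apart.

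The liver both releases and takes up glucose. In gluconeogenesis, pyruvate carboxylase (Pcx) and phosphoenolpyruvate carboxykinase (Pck1) turn pyruvate into phosphoenolpyruvate, fructose bisphosphatase (Fbp1) carries the path past the step set by phosphofructokinase, and glucose-6-phosphate is carried into the endoplasmic reticulum by its translocase (Slc37a4) and cleaved there by glucose-6-phosphatase (G6pc). GLUT2 (Slc2a2) lets glucose pass the hepatocyte membrane in both directions. On the side of glucose use, the regulatory protein encoded by Gckr restrains the entry of glucose into glycolysis, liver pyruvate kinase (Pklr) makes the last step of glycolysis, and ChREBP (Mlxipl) is the transcription factor that raises glycolytic and lipogenic genes, Pklr among them, when glucose is plentiful. Fasting, glucagon and glucocorticoids are known to raise Pck1 and G6pc, and insulin to lower them.

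Values are FPKM, fragments scaled to the length of the transcript in kilobases and to the mapped reads of the library. They summed to between 634683 and 759355 per library, and read totals are not known. The hepatocyte markers Apoa1 and Ttr were among the highest values, with Apoa1 between 20223 and 32458 FPKM, while Alb, the gene of albumin, was listed at 0 in all 12 libraries and checks nothing. Of 10 clock genes, 6 were higher and 4 lower at ZT12 in either treatment, and for 9 of them the times did not overlap. Overlap was not evaluated for the other, Npas2, which lay under the minimum level for testing. Its means were 0.972 and 0.00692 FPKM at ZT0 and ZT12 with vehicle, and 0.639 and 0.0130 FPKM with Libramed. Libramed ZT12 replicate 3 stood apart by muscle RNA, with Acta1 at 16.4, Ckm at 10.4 and Myh4 at 4.55 FPKM. The 4 muscle markers summed to 32.0 FPKM there and to at most 0.0473 FPKM in the other 11 libraries. For the 9 genes, the calls between times with Libramed are therefore given with and without it, as are some other differences. For the other glucose genes the calls between times are also counted without it, and single differences are given with it only. All 5 endothelial markers had lower means at ZT12 with vehicle and 4 with Libramed, where Lyve1 was at 0.328 and 0.344 FPKM. They summed to 23.3 to 32.8 FPKM at ZT0 and 12.2 to 20.7 FPKM at ZT12 with vehicle, and to 30.1 to 38.2 and 19.2 to 20.3 FPKM with Libramed. Most of these sums was Clec4g, with a mean of 22.5 FPKM at vehicle ZT0. All 6 stellate cell markers had lower means at ZT12 in both treatments. Of 7 macrophage markers, 7 had lower means at ZT12 with vehicle and 2 with Libramed. In the fat list the defining genes Lep and Retn were at 0 and Adipoq reached at most 0.0492 FPKM, while Cfd and Plin4 made up a sum of 5.42 to 9.16 FPKM at ZT0 and 15.0 to 47.1 FPKM at ZT12 with vehicle, and of 0.891 to 6.09 and 4.45 to 19.1 FPKM with Libramed. The part of these differences in the results was not tested. In bulk tissue a smaller number of cells of one type and less RNA per cell cannot be told apart.

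Sequence before the start is shown for the 5 genes called between ZT0 and ZT12 in at least 1 treatment. The sequences are RefSeq promoter windows on GRCm38.p6, plus strand, read 5′ to 3′ from 250 bases before the RefSeq start and ended where the first annotated exon of GENCODE vM21 begins or, for G6pc, with the motif. Capitals mark a motif match. The Pck1 stretch (chr2:173152823-173153047) holds TTACGTCA, a cAMP response element with 1 changed base, from 93 to 86 bases before the start, and the G6pc stretch (chr11:101367466-101367561) holds the D-box variant TTACGTAA, of the kind that PAR bZIP clock output factors bind. The Pklr stretch (chr3:89136373-89136571), at the start of the liver-type transcript, holds CACGGG and CCCGTG 5 bases apart, the form of the carbohydrate response element through which ChREBP acts on Pklr. Both the Slc37a4 (chr9:44396696-44396851) and the Slc2a2 (chr3:28697653-28697902) stretches hold AGGTCA, the core of sites for ROR and REV-ERB and of many other nuclear receptors.
Pck1: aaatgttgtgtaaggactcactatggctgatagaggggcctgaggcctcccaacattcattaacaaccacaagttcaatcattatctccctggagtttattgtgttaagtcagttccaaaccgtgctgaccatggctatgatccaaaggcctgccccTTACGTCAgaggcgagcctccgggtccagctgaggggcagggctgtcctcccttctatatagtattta
G6pc: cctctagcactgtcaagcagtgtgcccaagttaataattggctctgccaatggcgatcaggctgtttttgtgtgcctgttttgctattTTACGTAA
Pklr: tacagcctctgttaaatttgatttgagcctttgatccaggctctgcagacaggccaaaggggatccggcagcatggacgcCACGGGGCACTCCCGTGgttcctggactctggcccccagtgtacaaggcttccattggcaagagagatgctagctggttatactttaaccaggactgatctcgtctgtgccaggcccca
Slc37a4: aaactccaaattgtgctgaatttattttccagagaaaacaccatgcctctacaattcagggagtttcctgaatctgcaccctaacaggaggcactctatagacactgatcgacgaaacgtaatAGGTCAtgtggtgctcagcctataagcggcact
Slc2a2: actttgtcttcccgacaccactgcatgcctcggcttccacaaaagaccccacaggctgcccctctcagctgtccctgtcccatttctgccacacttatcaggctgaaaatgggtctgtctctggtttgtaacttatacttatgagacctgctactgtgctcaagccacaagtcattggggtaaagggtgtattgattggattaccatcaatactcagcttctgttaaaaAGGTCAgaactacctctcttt

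The search covered both strands of the whole windows, 250 bases before to 50 bases after each start, for 10 motifs in 14 windows of the 9 genes and in all 32851 windows of the table. TTACGTCA was in 0.499% of all windows, TTACGTAA in 0.119%, and AGGTCA, which was also in windows of G6pc, Pcx and Pklr, in 16.3%. The Pklr element was in 1 window only, its own, and this motif was added after the promoters had been read. The E-box CACGTG, bound by CLOCK and BMAL1, was found in a window of Pcx and in one of Mlxipl, and in 7.15% of all windows. The core TGACG, which overlaps TTACGTCA on the other strand, was in 20.8% of all windows and among the 9 genes in those of Pck1 and Slc37a4. The other motifs, TTATGTAA (0.938% of windows), TGACGTCA (1.79%), the forkhead motif GTAAACA (3.65%) and the HNF4 motif CAAAGTCCA (0.475%), had no match near the starts of the 9 genes. A match says only that these letters are there, and no binding was measured.

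Over the 12 livers the mean levels ran from 926 FPKM for Pck1, rank 104 of all symbols, and 825 FPKM for Fbp1, through 177 for G6pc, 176 for Pcx, 151 for Pklr, 137 for Slc37a4 and 111 for Mlxipl, to 95.4 for Gckr and 94.9 for Slc2a2. FPKM are per length, so these levels can be set against each other, but neighbours in this order were mostly not separated. Fbp1 was above G6pc in all 12 libraries, whereas every other gene exceeded the next in only 6 to 8 of the 12. The genes differed more in how far they ranged. Pklr spanned 7.86-fold between its lowest and highest liver, Pck1 5.91-fold and G6pc 5.50-fold, while Gckr spanned 1.57-fold, Pcx 1.62-fold, Fbp1 1.66-fold and Mlxipl 1.73-fold.

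**Figure D1:**
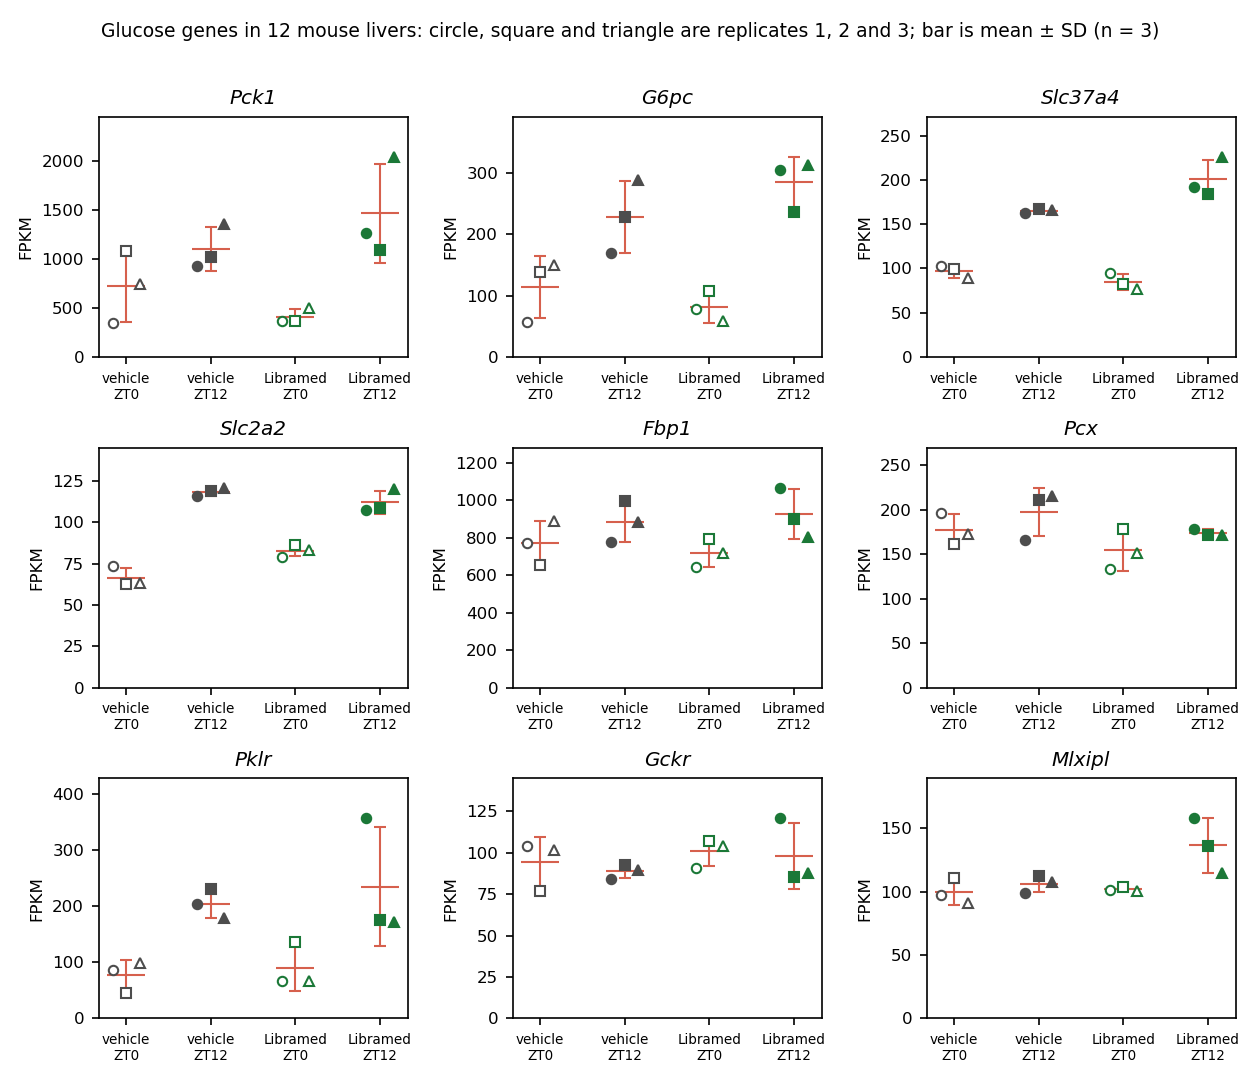
FPKM (y axes, linear from 0) of the 9 genes in each of the 12 livers, by group (x axes); circles, squares and triangles are replicates 1, 2 and 3, open at ZT0 and filled at ZT12, and red bars are the mean ± SD of 3 mice. Slc37a4 and Slc2a2 were higher in every ZT12 liver than in any ZT0 liver, the times overlapped for Gckr and Pcx, and Pck1 at ZT0 was widely spread with vehicle (346 to 1079 FPKM) and not with Libramed (367 to 497 FPKM).

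Both transporters at the end of the path were higher at ZT12 in both treatments. Slc37a4 (chr9:44396852-44402968, plus strand) brings glucose-6-phosphate to the phosphatase. With vehicle it was at 102, 98.9 and 88.6 FPKM in the ZT0 livers and at 162, 167 and 166 FPKM in the ZT12 livers. The Libramed livers held 94.5, 82.6 and 76.9 FPKM at ZT0 and 192, 184 and 226 FPKM at ZT12. The times did not overlap in either treatment, and the vehicle ZT12 livers lay within 1.03-fold of each other. Slc37a4 rose 1.71-fold with vehicle, a difference in log2(FPKM + 1) of 0.77 (SE 0.08, limma adjusted p = 0.00536), and 2.37-fold with Libramed, a difference of 1.24 (SE 0.11, limma adjusted p = 0.00221). Without the Libramed replicate that held muscle RNA, which was also the highest for Slc37a4, the Libramed difference was 1.15. All fold changes are ratios of mean FPKM, and limma was run on log2(FPKM + 1) with adjustment over 9806 genes.

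Slc2a2 (chr3:28697903-28731359, plus strand), the gene of GLUT2, was at 73.5, 62.4 and 63.0 FPKM at ZT0 and at 116, 119 and 121 FPKM at ZT12 with vehicle. With Libramed it stood at 79.3, 86.3 and 83.2 FPKM at ZT0 and at 107, 109 and 119.9 FPKM at ZT12. Again every ZT12 liver was above every ZT0 liver of its treatment, and the ZT0 livers of the treatments did not overlap. The gene rose 1.79-fold with vehicle (log2 difference 0.83, SE 0.09, limma adjusted p = 0.00536) and 1.35-fold with Libramed (0.43, SE 0.08, limma adjusted p = 0.0184). The Libramed call was lost without ZT0 replicate 1 (limma adjusted p = 0.0612), ZT0 replicate 3 (0.0579), ZT12 replicate 2 (0.0599) or ZT12 replicate 3 (0.0570), with differences of 0.38 to 0.45. A long antisense transcript, 1700112D23Rik, overlaps 28693 bases of Slc2a2, and the sources do not settle whether reads were counted by strand, so reads of the pair may not have been separated. The same limit holds for the 3883 bases of Pcx under Lrfn4, the 711 bases of Pklr under Hcn3 and the 884 bases of Mlxipl under Gm43500.

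G6pc (chr11:101367561-101377903, plus strand) encodes the phosphatase that frees glucose. Vehicle livers held 56.9, 138 and 149 FPKM at ZT0 and 171, 228 and 288 FPKM at ZT12. Libramed livers held 77.6, 107 and 57.9 FPKM at ZT0 and 305, 237 and 313 FPKM at ZT12. In both treatments the times did not overlap, but the vehicle ZT0 livers were spread 2.63-fold, with replicate 1 far below the other two. G6pc rose 3.53-fold with Libramed (log2 difference 1.84, SE 0.22, limma adjusted p = 0.00440). Without the replicate that held muscle RNA, the highest of its group for G6pc, the Libramed difference was 1.77 (limma adjusted p = 0.0207). With vehicle the ZT12 mean was 1.99-fold the ZT0 mean, and the difference of 1.08 (SE 0.38) did not pass the adjustment (limma adjusted p = 0.124). It was 0.63 without ZT0 replicate 1, and 1.32 at most when another liver was left out.

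Pck1 (chr2:173153048-173159273, plus strand), which commits oxaloacetate to glucose, had the highest mean of the 9 genes over the 12 livers, while at ZT0 the mean of Fbp1 was higher in both treatments. With vehicle it was at 346, 1079 and 741 FPKM at ZT0 and at 928, 1017 and 1359 FPKM at ZT12. With Libramed it was at 371, 367 and 497 FPKM at ZT0 and at 1269, 1090.4 and 2044 FPKM at ZT12. The vehicle groups overlapped, since ZT0 replicate 2 was above replicates 1 and 2 at ZT12, and the Libramed groups did not. Pck1 rose 3.57-fold with Libramed (log2 difference 1.79, SE 0.24, limma adjusted p = 0.00638), and without the replicate that held muscle RNA, the highest for Pck1, the difference was 1.53. The vehicle difference was 0.74 (SE 0.40, 95% interval -0.20 to 1.67, limma adjusted p = 0.279), and it ranged from 0.28 without ZT0 replicate 1 to 1.10 without ZT0 replicate 2.

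Fbp1 and Pcx, the other gluconeogenic enzymes, did not pass the adjusted test between the times. Fbp1 (chr13:62864753-62888282, minus strand) was at 773, 654 and 891 FPKM at vehicle ZT0 and at 776, 994 and 886 FPKM at vehicle ZT12, with overlap. In Libramed livers it was at 643, 794 and 719 FPKM at ZT0 and at 1067, 902 and 805 FPKM at ZT12, without overlap. The log2 differences were 0.20 with vehicle (95% interval -0.15 to 0.55, limma adjusted p = 0.433) and 0.36 with Libramed (0.05 to 0.67, limma adjusted p = 0.125). For Pcx (chr19:4510472-4621752, plus strand), the carboxylase that feeds oxaloacetate, group means ran from 154 ± 22.9 (SD, n = 3) FPKM at Libramed ZT0 to 197 ± 27.5 (SD, n = 3) FPKM at vehicle ZT12. Its livers ranged from 133 to 216 FPKM over all groups, and the times overlapped in both treatments. The Pcx differences were 0.15 (-0.16 to 0.46, limma adjusted p = 0.504) with vehicle and 0.18 (-0.09 to 0.45, limma adjusted p = 0.346) with Libramed.

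On the side of glucose use, Pklr (chr3:89136142-89146784, plus strand) was higher in every ZT12 liver than in any ZT0 liver. The vehicle livers were at 85.7, 45.3 and 97.8 FPKM at ZT0 and at 204, 230.2 and 179 FPKM at ZT12. The Libramed livers were at 65.6, 135 and 66.2 FPKM at ZT0 and at 356, 175 and 172 FPKM at ZT12. The times did not overlap in either treatment, and Libramed ZT12 replicate 1 was 2.07-fold above the lowest liver of its group. Pklr rose 2.68-fold with vehicle (log2 difference 1.48, SE 0.28, limma adjusted p = 0.0236). That call was lost without vehicle ZT12 replicate 1 (limma adjusted p = 0.0684), 2 (0.0932) or 3 (0.0634), at differences of 1.39 to 1.57. With Libramed the ratio of the means was 2.64 and the log2 difference 1.39 (SE 0.37), which missed the threshold of 0.05 (limma adjusted p = 0.0524), and without Libramed ZT0 replicate 2, the highest at ZT0, it was 1.73 (limma adjusted p = 0.0359).

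Gckr and Mlxipl differed less. Gckr (chr5:31297443-31327314, plus strand) had group means of 88.8 ± 4.12 to 100.7 ± 8.64 FPKM (SD, n = 3), and its times overlapped in both treatments. Its log2 differences were -0.07 with vehicle (95% interval -0.38 to 0.23, limma adjusted p = 0.763) and -0.06 with Libramed (-0.40 to 0.29, limma adjusted p = 0.842). Mlxipl (chr5:135089890-135138382, plus strand), the gene of ChREBP, was at 97.3, 111 and 91.2 FPKM at vehicle ZT0 and at 99.2, 112 and 107 FPKM at vehicle ZT12. The Libramed livers were at 101.4, 104 and 100.4 FPKM at ZT0 and at 158, 136 and 115 FPKM at ZT12. The vehicle groups overlapped and the Libramed groups did not. The Mlxipl differences were 0.09 (limma adjusted p = 0.614) and 0.41 (SE 0.12, limma adjusted p = 0.0693). The Libramed difference was 0.52 and passed the adjustment (limma adjusted p = 0.0381) without the replicate that held muscle RNA, which was the lowest of its group for Mlxipl.

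Counted together, 3 of the 9 genes rose at ZT12 with vehicle (Pklr, Slc2a2 and Slc37a4) and 4 with Libramed (Pck1, G6pc, Slc2a2 and Slc37a4), and 0 fell in either treatment by limma at adjusted p under 0.05. Among all genes tested, 5.62% were called higher and 4.78% lower at ZT12 with vehicle (10.4% in all), and 7.00% higher and 5.36% lower with Libramed (12.4% in all). At unadjusted p under 0.05, 4 genes were higher with vehicle and 7 with Libramed, and 0 were lower, against 14.4% and 15.7% of all genes higher and 13.0% and 13.4% lower. Groups did not overlap for the same counts of genes, 4 with vehicle against 17.4% of all genes higher at ZT12 without overlap, and 7 with Libramed against 19.0%. The median log2 difference of the 9 genes was 0.74 with vehicle, the value of Pck1, which was not called, and 0.43 with Libramed, the value of Slc2a2, where the median of all genes was 0.01 in both. The time difference was more positive with Libramed for 7 of the 9 genes, with a median interaction of 0.16, where the median of all genes was 0.0047. None of these interactions was called, and for Gckr, Pcx and Pklr the sign turned when single livers were left out. The exact permutation test of a single gene has 20 arrangements of 3 livers against 3 and cannot give a two-sided p below 0.1, the value it gave for each gene whose groups did not overlap.

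**Figure D2:**
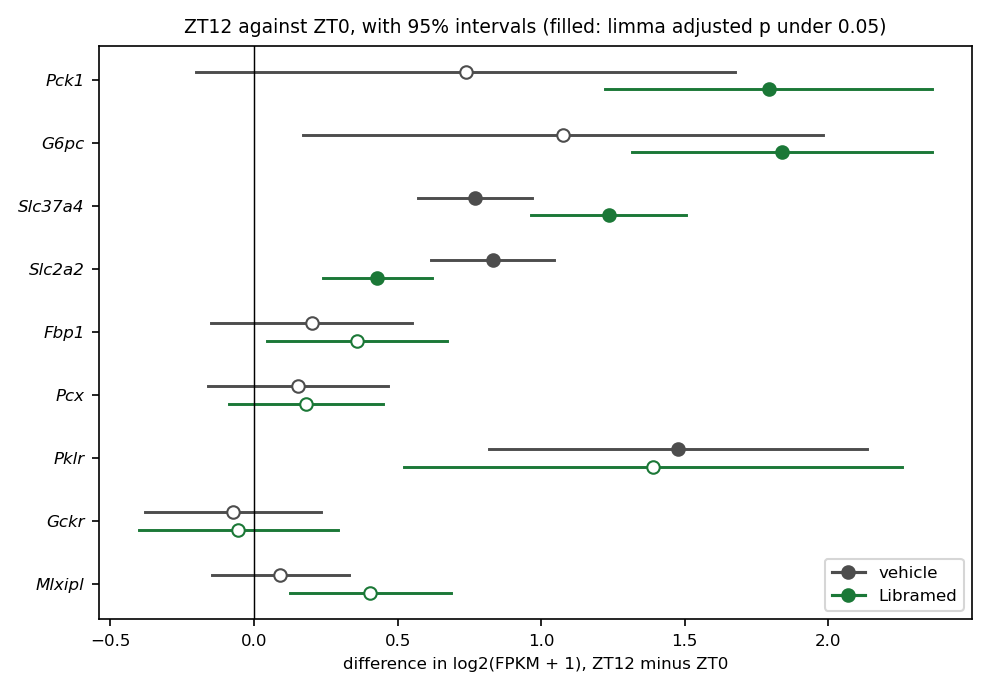
Difference in log2(FPKM + 1) between ZT12 and ZT0 (x axis, ZT12 minus ZT0) for each of the 9 genes (y axis), in vehicle (gray) and Libramed (green) mice; lines are 95% intervals from limma and filled points have an adjusted p under 0.05. The vehicle and Libramed points lie farthest apart for Pck1 (0.74 and 1.79), G6pc (1.08 and 1.84), Slc37a4 (0.77 and 1.24) and Slc2a2 (0.83 and 0.43). The interaction was not called for any of them, and the vehicle interval is wide for Pck1 (-0.20 to 1.67).

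Direct comparison of Libramed with vehicle called 0 of the 9 genes at ZT0 and 0 at ZT12, where limma called 0 of all genes (0%) at either time. At unadjusted p under 0.05, 1 gene differed at ZT0 (9.23% of all genes) and 2 at ZT12 (6.74%), each higher with Libramed, against 3.42% and 3.07% of all genes higher. At ZT0 this gene was Slc2a2, the GLUT2 gene, whose Libramed mean of 82.9 ± 3.50 FPKM (SD, n = 3) was 1.25-fold the vehicle mean of 66.3 ± 6.26 FPKM (SD, n = 3). The log2 difference was 0.32 (SE 0.10, 95% interval 0.09 to 0.55, limma adjusted p = 0.482). At ZT12 its difference was -0.08 (95% interval -0.25 to 0.09). Lower ZT0 means with Libramed were found for Pck1, 412 ± 73.8 against 722 ± 367 FPKM (SD, n = 3), and G6pc, 80.8 ± 24.7 against 115 ± 50.6 FPKM (SD, n = 3), but the groups overlapped. Their intervals were wide, from -1.58 to 0.23 for Pck1 and from -1.34 to 0.49 for G6pc on the log2 scale, and include 0. The differences of -0.68 and -0.43 were -1.13 and -0.87 without vehicle ZT0 replicate 1, -0.31 and -0.23 without vehicle ZT0 replicate 2, and for G6pc -0.18 without vehicle ZT0 replicate 3, -0.65 without Libramed ZT0 replicate 2 and -0.21 without Libramed ZT0 replicate 3.

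At ZT12 the genes with unadjusted p under 0.05 were Slc37a4 and Mlxipl, both without overlap. Slc37a4 averaged 201 ± 22.3 FPKM (SD, n = 3) with Libramed and 165 ± 2.62 FPKM (SD, n = 3) with vehicle, a log2 difference of 0.28 (SE 0.09, 95% interval 0.06 to 0.49, limma adjusted p = 0.729). Mlxipl averaged 136 ± 21.4 against 106 ± 6.43 FPKM (SD, n = 3), a difference of 0.35 (SE 0.12, interval 0.06 to 0.64, limma adjusted p = 0.729). Of all genes, 5.88% were higher with Libramed at ZT12 without overlap, and 5.19% at ZT0. Without the replicate that held muscle RNA the differences were 0.19 for Slc37a4 (limma adjusted p = 0.536) and 0.46 for Mlxipl (limma adjusted p = 0.533). Pck1 and G6pc had higher ZT12 means with Libramed, by 0.38 (95% interval -0.22 to 0.98) and 0.34 (-0.14 to 0.81) on the log2 scale, and their groups overlapped. Without the replicate that held muscle RNA these were 0.11 (limma adjusted p = 0.853) and 0.26 (limma adjusted p = 0.726), and G6pc ranged from 0.14 without vehicle ZT12 replicate 1 to 0.52 without vehicle ZT12 replicate 3. Over both times together limma called 0 of the 9 genes at adjusted p under 0.05, against 0.0204% of all genes, and 0 at unadjusted p under 0.05, against 10.1%. The genes nearest to a call there were Mlxipl (0.19 higher with Libramed, limma adjusted p = 0.496) and Pcx (difference -0.19, limma adjusted p = 0.498).

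**Figure D3:**
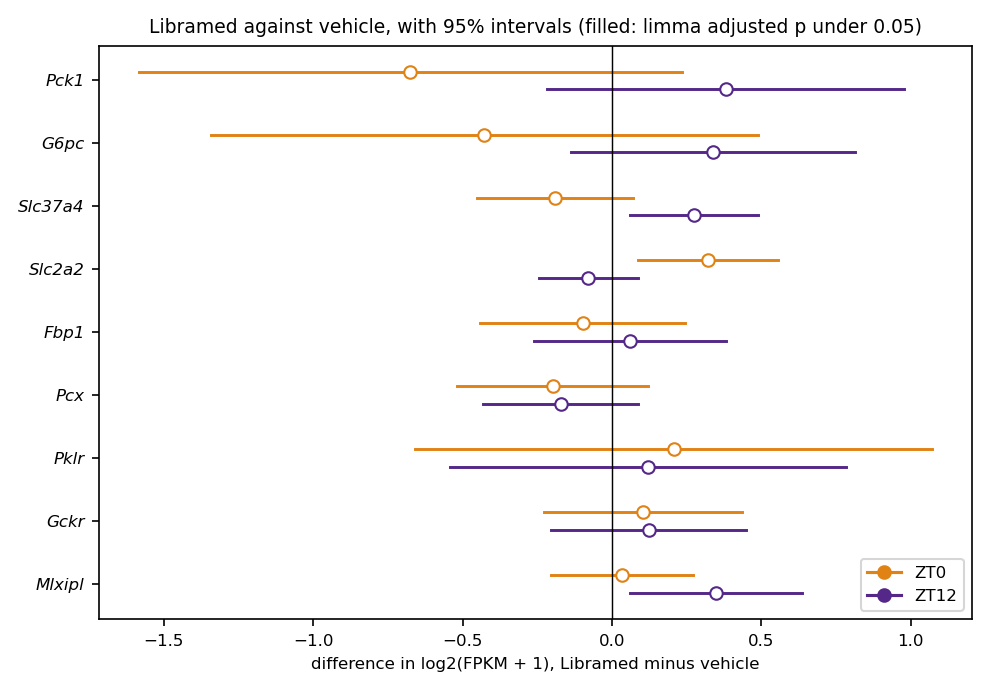
Difference in log2(FPKM + 1) between Libramed and vehicle (x axis, Libramed minus vehicle) for each of the 9 genes (y axis), at ZT0 (orange) and ZT12 (purple); lines are 95% intervals from limma, and all points are open because 0 genes had an adjusted p under 0.05. The ZT0 point is left of the ZT12 point for Pck1, G6pc, Slc37a4 and Mlxipl and right of it for Slc2a2 (0.32 and -0.08).

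Whether the time difference itself differed between treatments was tested as the interaction in a fit of all 12 livers, in which limma called 0 of the 9 genes and 0 of all genes (0%) at adjusted p under 0.05. At unadjusted p under 0.05, 1 of the 9 had a more positive time difference with Libramed and 1 a more negative one, against 3.82% and 2.80% of all genes. The first was Slc37a4, whose time difference was larger with Libramed by 0.47 (SE 0.14, 95% interval 0.15 to 0.78, limma adjusted p = 0.573). The exact permutation test of treatment labels within each time, with 400 arrangements and a smallest possible p of 0.005, gave p = 0.01. It is exact only where treatment has no effect at either time, so it does not test the interaction alone. The second was Slc2a2, whose time difference was smaller with Libramed (-0.40, SE 0.12, interval -0.66 to -0.15, limma adjusted p = 0.525, exact permutation p = 0.015). Leaving out each liver in turn gave 0.38 to 0.55 for Slc37a4 and -0.48 to -0.36 for Slc2a2, at unadjusted limma p under 0.05 each time and adjusted p of 0.281 or more. The translocase and the glucose transporter had interactions of opposite sign, and neither passed the adjustment over all genes.

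For Pck1 the interaction was 1.06 (SE 0.51, 95% interval -0.06 to 2.17, limma adjusted p = 0.755, exact permutation p = 0.105) and for G6pc 0.76 (SE 0.49, interval -0.30 to 1.83, limma adjusted p = 0.833, exact permutation p = 0.16). Both moved with single livers. Without vehicle ZT0 replicate 1, the lowest of its group, they were 1.51 (limma adjusted p = 0.349) and 1.21 (limma adjusted p = 0.367), and without vehicle ZT0 replicate 2, the highest for Pck1, they were 0.69 (limma adjusted p = 0.824) and 0.57 (limma adjusted p = 0.860). Without the replicate that held muscle RNA they were 0.79 (limma adjusted p = 0.830) and 0.69 (limma adjusted p = 0.855). Mlxipl had an interaction of 0.31 (SE 0.16, limma adjusted p = 0.764), which was 0.43 (limma adjusted p = 0.656) without the replicate that held muscle RNA. The other genes were nearer to 0, at 0.16 for Fbp1, 0.03 for Pcx, 0.02 for Gckr and -0.09 for Pklr, the last with a wide interval of -1.21 to 1.04. That Pck1 and G6pc were called between times with Libramed and not with vehicle is therefore not shown to be a difference between the treatments.

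The 9 genes were set beside 103 other genes of glucose metabolism in the table, of which 90 were tested. Between times limma called 13 of the 90 higher and 4 lower at ZT12 with vehicle (18.9%), and 22 higher and 4 lower with Libramed (28.9%), against 10.4% and 12.4% of all genes. These counts moved with single livers. The 17 calls with vehicle were 4, 9, 5 and 6 without ZT0 replicate 3 and ZT12 replicates 1, 2 and 3, and the 26 with Libramed were 15, 14 and 15 without ZT0 replicates 1, 2 and 3 and 10 and 15 without ZT12 replicates 2 and 3. The median log2 differences of the 90 genes were 0.14 and 0.19. In the list of fructose and other sugars, 4 of 10 genes were higher and 1 lower with vehicle and 2 higher and 0 lower with Libramed. Substrate supply had 3 higher and 2 lower of 18 with vehicle and 5 and 2 with Libramed, glycolysis 1 higher and 0 lower of 16 and 5 and 1, and regulators 3 higher of 20 and 7, with 0 lower. The shorter lists had 1 call in each direction of 10 with vehicle and 2 higher with Libramed for entry of pyruvate into mitochondria, 1 higher of 9 in each treatment for partners and targets of ChREBP, and 0 of 7 with vehicle and 1 lower with Libramed for the pentose phosphate path.

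The largest called changes were those of Thrsp, a lipogenic target of ChREBP, and Lpin1, a phosphatidate phosphatase and coactivator of fasting genes. Thrsp was at 371, 90.5 and 264 FPKM at vehicle ZT0 and at 1021, 2063.5 and 1102 FPKM at vehicle ZT12, and with Libramed at 127, 189.8 and 201 FPKM at ZT0 and at 3565, 2216 and 2086 FPKM at ZT12. No ZT12 liver overlapped a ZT0 liver, and Thrsp rose by 2.67 (SE 0.53, limma adjusted p = 0.0274) and 3.90 (SE 0.25, limma adjusted p = 0.000659) on the log2 scale. Lpin1 rose by 2.63 with vehicle and 2.67 with Libramed, its means going from 5.59 to 40.6 FPKM and from 7.64 to 55.2 FPKM. Pfkfb3, which makes the activator of phosphofructokinase, rose by 1.43 and 2.08 at low levels, the vehicle means being 0.848 and 3.91 FPKM and the Libramed means 0.738 and 7.70 FPKM. Its Libramed ZT12 livers were spread, at 2.51, 6.54 and 14.1 FPKM, the last in the replicate that held muscle RNA. With vehicle, Slc16a7, a monocarboxylate carrier, rose by 1.24, while Pdk4, a kinase that shuts pyruvate dehydrogenase, fell by 1.00. With Libramed the other genes of largest change were from the list of regulators. They were Cebpb (1.49), Tat (1.41) and Sik1, a kinase that restrains cAMP signaling (1.17). Tat encodes an enzyme, tyrosine aminotransferase, and stands in that list as a gene of the glucocorticoid response.

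**Figure D4:**
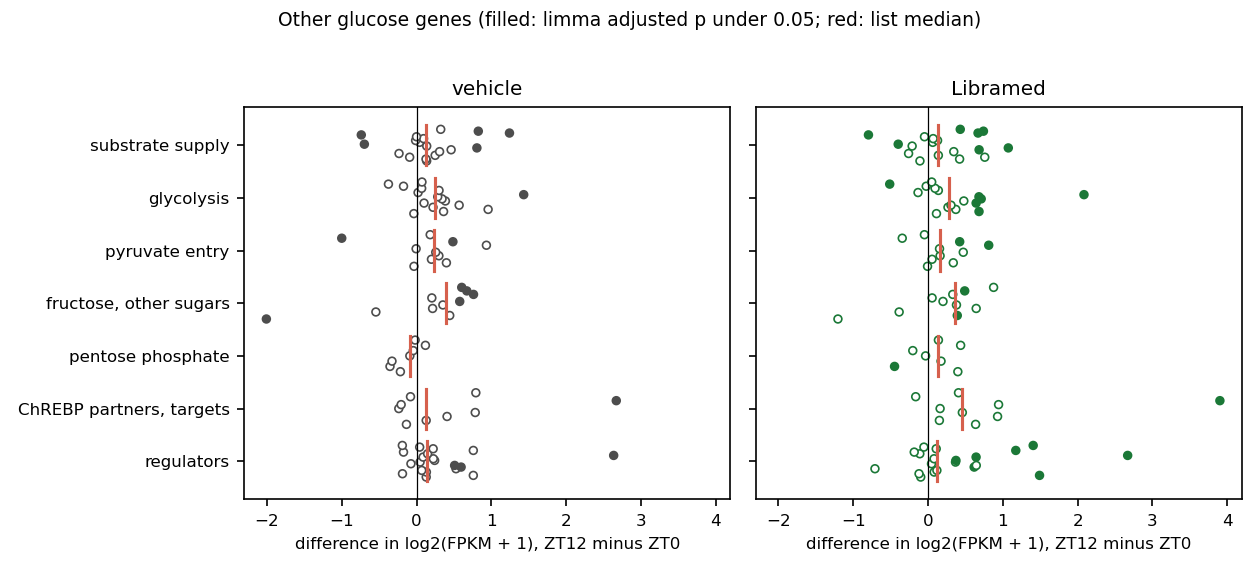
Difference in log2(FPKM + 1) between ZT12 and ZT0 (x axes) of the 90 other glucose genes tested, by list (y axis), with vehicle (left) and Libramed (right); each point is 1 gene, filled where the limma adjusted p was under 0.05, and red lines are list medians. Most points lie within 1 of 0, and Thrsp is the point farthest to the right in both panels (2.67 and 3.90).

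Between treatments 0 of the 90 genes passed the adjustment at either time. At unadjusted p under 0.05, 1 was higher and 4 lower with Libramed at ZT0, and 8 were higher and 3 lower at ZT12, against 9.23% and 6.74% of all genes in either direction. Tat was higher with Libramed at ZT12 by 0.96 and lower at ZT0 (-0.64), and Thrsp was higher at ZT12 by 0.94, all at adjusted p of 0.469 to 0.729 by limma. Smaller differences of the same standing were those of Rpia (0.46), Gyk (-0.41) and Pdhb (0.31) at ZT12, and of Cebpb (-0.48), Slc2a9 (0.46), Ldha (-0.33) and Klf15 (-0.27) at ZT0. Over both times Rpia was higher with Libramed by 0.31, and Ldhb and Slc2a9 by 0.24, while H6pd (-0.25) and Gyk (-0.24) were lower, each at an unadjusted p under 0.05 only.

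**Figure D5:**
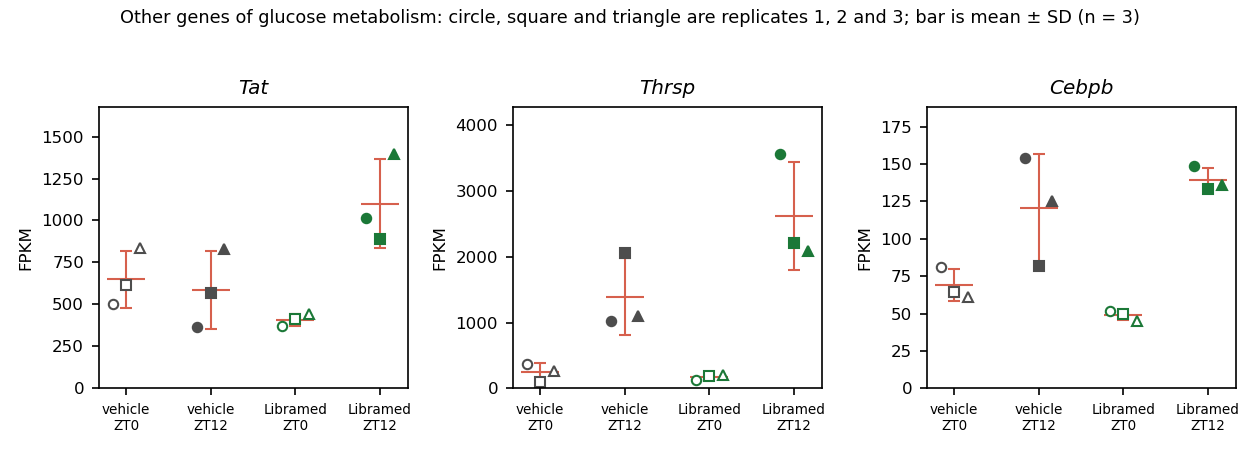
FPKM (y axes, linear from 0) of Tat, Thrsp and Cebpb in each of the 12 livers, by group (x axes); circles, squares and triangles are replicates 1, 2 and 3, and red bars are the mean ± SD of 3 mice. Tat in the Libramed ZT12 livers (891 to 1397 FPKM) was above all other livers (365 to 834 FPKM), and Cebpb at ZT0 was lower in every Libramed liver (45.3 to 51.6 FPKM) than in any vehicle liver (61.4 to 81.2 FPKM).

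For each gene called in any comparison, the 3 genes whose log2(FPKM + 1) was most alike over the 12 livers were listed by Pearson's r, as a description. The livers share groups and times, so that any gene of similar difference between ZT0 and ZT12 scores high. For Slc37a4 these were Cdip1 (r = 0.979), Crcp (0.979) and the clock repressor Per2 (0.978). For Slc2a2 they were Cyp3a59 (0.971), Hnmt (0.971) and Slc35b2 (0.968), and for Pklr they were Tkfc, a kinase of fructose metabolism (0.948), Gbe1, the glycogen branching enzyme (0.947), and Cebpzos (0.941). Pck1 was most alike to Phf11c (0.962), Baz1b (0.959) and Mycbp2 (0.947), and G6pc to Fggy (0.947), Slc45a3 (0.944) and Phactr4 (0.944). None of the 9 genes was among the 3 nearest of another.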

How the data were processed

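Liver RNA of 12 mice in 4 labelled groups was used. A deposited table gives the authors' FPKM for every gene in every liver. Their methods describe unique single-end reads aligned to mm10 with ELAND and call the unit RPKM, while the submitters' processing notes name TopHat and Cuffnorm; the labels give a kit that does not mark strand and the methods a stranded one. Of 24138 lines, 289 repeat a symbol, and of such lines the one of highest mean was used. limma 3.58.1 in R 4.3.3 (lmFit, eBayes with trend) was run on log2(FPKM + 1) for 9806 symbols with a mean of at least 1 FPKM, two-sided, with Benjamini-Hochberg adjustment over all of them and a threshold of 0.05. Pairwise comparisons used the 6 livers compared, and the interaction and the treatment effect over both times all 12. The pseudocount of 1 shrinks fold changes of low genes. The code was tested on simulated data.

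The 9 genes and all lists were chosen with earlier results of these data known. Of the other glucose genes, up to 6 per comparison were named, those of largest absolute log2 difference at adjusted p under 0.05, or at p under 0.05 where none passed. Some genes that this rule takes are not reported here. The methods used a regularized Cyber t-test, run here as an alternative in a similar form with a prior weight of 10. Other alternatives were a pseudocount of 0.1, no minimum, a minimum of 5 FPKM, no trend, median-ratio scaling, quantile normalization, a fit of all 12 livers, the replicate number as a block, and leaving out each liver. Coordinates are from GENCODE vM21 (GRCm38, the build of the files). Depth is unknown, so no counting error is given; no 2 libraries of a group held equal values at more than 0.204% of the genes tested.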

Additional observations from a re-analysis of the deposited data

Results flagged for a closer look

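At an unadjusted limma p under 0.05 of the interaction, 9 glucose genes were flagged, and none of these passed the adjustment over 9806 genes. Among the 90 other glucose genes, 5 had a more positive time difference with Libramed and 2 a more negative one. Among the 9 genes described it was 1 and 1, against 3.82% and 2.80% of all genes. The interaction is the Libramed time difference minus the vehicle time difference in log2(FPKM + 1). Among the 9 genes described these were Slc2a2 (-0.40, limma adjusted p = 0.525) and Slc37a4 (0.47, limma adjusted p = 0.573).

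Of the other glucose genes, Tat had the largest interaction (1.60, limma adjusted p = 0.519). It was at 499.5, 615 and 834 FPKM at vehicle ZT0 and 365, 569 and 829 FPKM at vehicle ZT12, with overlap, and at 373, 411 and 441 FPKM at Libramed ZT0 and 1013, 891 and 1397 FPKM at Libramed ZT12, without overlap. Foxa2, a hepatocyte transcription factor, had an interaction of -1.24 (limma adjusted p = 0.725). Its Libramed ZT12 livers held 16.0, 23.5 and 7.59 FPKM, the last in the replicate that held muscle RNA. That replicate was also the highest of its group for Tat and for Klf15 (148 against 111 and 107 FPKM). The interactions of the other glucose genes are given with it only. For Cebpb the interaction was 0.73 (limma adjusted p = 0.665), for Klf15, a regulator of amino acid use in fasting, 0.55 (limma adjusted p = 0.560), and for Slc2a9, a urate and hexose carrier, -0.43 (limma adjusted p = 0.692). Mlx, the partner of ChREBP on DNA, had 0.40 (limma adjusted p = 0.663), and Ldha, a lactate dehydrogenase gene, 0.30 (limma adjusted p = 0.717).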

How the results depend on the processing

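The number of the 9 genes called stayed between 2 and 4 with vehicle and between 3 and 6 with Libramed between the times, and at 0 in the other comparisons, over all alternatives. Settings other than leaving out a liver changed the calls of Pklr (vehicle, lost with no minimum, limma adjusted p = 0.0846; Libramed, gained with the Cyber-T style test, 0.000196, and with the fit of all 12 livers, 0.0261), G6pc (vehicle, gained with the Cyber-T style test, 0.00551) and Mlxipl (Libramed, gained with the fit of all 12 livers, 0.0350). The replicate block lost Pklr with vehicle (0.0736) and changed no other call of the 9 genes. Same-numbered livers did not deviate together: correlations ran from -0.26 to -0.03 and from -0.10 to 0.26 between times with vehicle and Libramed, and from -0.28 to 0.05 and from -0.21 to -0.0035 between treatments at ZT0 and ZT12, so the numbers were not taken as pairs.

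Over all genes, the counts of 1020 (vehicle) and 1212 (Libramed) called between times were 515 and 639 with no minimum, 279 and 709 with the replicate block, and 1539 and 1462 in the fit of all 12 livers. Leaving out 1 liver gave 226 (without ZT12 replicate 2) to 869 with vehicle and 535 (without ZT12 replicate 2) to 1014 with Libramed. The counts of 17 and 26 of the other glucose genes were 7 and 14 with no minimum, 4 and 17 with the replicate block, and 26 and 27 in the fit of all 12 livers, and 4 to 16 and 10 to 22 when 1 liver was left out. Quantile normalization changed the split from 551 higher and 469 lower to 495 and 503 with vehicle, and from 686 and 526 to 619 and 632 with Libramed. The Cyber-T style test called 69 genes between treatments at ZT0 and 23 at ZT12. Of the other glucose genes, 0 were among the 69 and 1 was among the 23.

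Among the 9 genes, signs turned only for differences that were not called. The Gckr interaction turned under quantile normalization (-0.011). Leaving out 1 liver gave ranges across 0 for Gckr of -0.21 to 0.0040 (time, vehicle), -0.21 to 0.034 (time, Libramed), -0.034 to 0.18 (treatment, ZT0), -0.037 to 0.21 (treatment, ZT12) and -0.14 to 0.16 (interaction). For Pklr they were -0.14 to 0.42 (ZT0), -0.22 to 0.30 (ZT12) and -0.43 to 0.26 (interaction), for Fbp1 -0.21 to 0.0097 (ZT0), -0.048 to 0.16 (ZT12) and -0.076 to 0.038 (both times), for Pcx -0.093 to 0.14 (interaction) and for Mlxipl -0.029 to 0.11 (ZT0). The treatment effect over both times ranged from -0.32 to 0.072 for Pck1, -0.20 to 0.11 for G6pc and -0.023 to 0.10 for Slc37a4. The cause of these changes was not tested; fits without a liver have fewer samples.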
